A study of Mus musculus with 8 samples.

Results

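The genes examined were 9 Toll-like receptor (TLR) genes of the mouse, Tlr1, Tlr2, Tlr3, Tlr4, Tlr5, Tlr6, Tlr7, Tlr9 and Tlr13, together with Myd88, which encodes the adaptor that most of these receptors share. They were taken by name, 10 of the 37252 genes annotated on the mm9 build. For each gene, summits of NFATc2 peaks within 100 kb of a transcription start site (TSS) were collected. H3K4me3 peaks were assigned to a gene when they overlapped it or lay within 1 kb of a TSS. All libraries came from D1, a long-term splenic dendritic cell (DC) line of the C57BL/6 strain. For the NFATc2 experiment the D1 cells carried a lentiviral transgene for NFATc2 with a V5 tag, sorted for low expression, and had received 10 μg/ml curdlan for 30 min. H3K4me3 was profiled in non-treated (NT) cells, in cells given 10 μg/ml curdlan for 2 h, and in cells given curdlan with FK506 for 2 h. The FK506 dose is not given in the labels of these libraries. Each condition had 1 ChIP and 1 input library, so there is no measure of spread between cultures, and no p-value was computed between conditions. Intervals are 95% counting intervals and cover counting error only.

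TLRs are pattern recognition receptors that DCs use to sense microbial products. Tlr2, which pairs with Tlr1 or Tlr6, binds bacterial lipopeptides, Tlr4 responds to lipopolysaccharide and Tlr5 to flagellin, all at the cell surface. Tlr3, Tlr7, Tlr9 and Tlr13 sit in endosomes and sense dsRNA, single-stranded RNA, unmethylated CpG DNA and bacterial ribosomal RNA, respectively. All of them except Tlr3 signal through Myd88. Curdlan is a β-glucan that binds another receptor, dectin-1, which activates calcineurin and thereby moves NFATc2 into the nucleus, and FK506 is a calcineurin inhibitor. H3K4me3, the trimethylation of lysine 4 of histone H3, is found around the start sites of active genes.

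The NFATc2 library held 14377535 ChIP tags and gave 9438 peaks. The 3 H3K4me3 libraries held between 16662316 and 21289349 tags and gave between 14872 and 15799 peaks, and the H3K4me3 peaks took up between 51.3% and 57.9% of the tags of their libraries. An H3K4me3 peak lay within 1 kb of a TSS for 9 of 10 dendritic or myeloid marker genes in each list (Itgax, Itgam, Spi1, Ptprc, Csf1r, Clec7a, H2-Ab1, Cd74 and Ciita, but not Flt3). None of the 4 T cell, 3 B cell, 3 fibroblast and 3 epithelial marker genes had one in any list.

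NFATc2 peaks lay close to the cell surface receptor genes Tlr2, Tlr4 and Tlr5 and to the endosomal receptor gene Tlr3. These were the 4 of 10 genes with a summit within 10 kb of a TSS, against 13.2% of all annotated genes and 16.3% of the protein-coding genes. With peaks of p of 1e-10 or less alone, 2 of the 4 remained, Tlr2 and Tlr5. Tlr2 remained through a summit 3.54 kb upstream and not through its nearest one, in the intron (p of 3.7e-09). The DNA under the nearest summit of each of the 4 genes is shown as the part of each locus that was recovered with tagged NFATc2. Each line gives 41 bases of the plus strand of mm9, and the capital letter marks the summit. The positions are chr3:83643502-83643542 for Tlr2, chr4:66489887-66489927 for Tlr4, chr1:184892069-184892109 for Tlr5 and chr8:46500584-46500624 for Tlr3.
Tlr2, intron: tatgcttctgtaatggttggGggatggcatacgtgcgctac
Tlr4, intron: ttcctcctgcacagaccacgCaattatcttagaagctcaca
Tlr5, intron: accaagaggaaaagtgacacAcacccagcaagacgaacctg
Tlr3, upstream: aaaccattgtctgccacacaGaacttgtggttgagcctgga

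NFAT proteins bind the core GGAAAA, and the Tlr2, Tlr4 and Tlr5 peaks each held at least 1 copy. These peaks were 1172, 2248 and 1040 bp long. The share of all peaks, or of control stretches of such length, with a copy is not given. The presence of a copy in the peak is therefore shown without a background. The copy nearest to the summit is shown in capitals with its 12 flanking bases on each side, 5′ to 3′ on the strand that carries it. The copies lay at chr3:83643836-83643865 (minus strand), chr4:66489873-66489902 (minus strand) and chr1:184892064-184892093 (plus strand), flanks included.
Tlr2, intron: gggcactaaaggGGAAAAtgtacaaccagc
Tlr4, intron: gtctgtgcaggaGGAAAAcaagaatgagtc
Tlr5, intron: aaacgaccaagaGGAAAAgtgacacacacc
The distance from the summit was 8 bp at Tlr5, 17 bp at Tlr4 and 326 bp at Tlr2. The Tlr2 copy therefore lay outside the window of 100 bp on each side that is used for counting motifs below.

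Within 100 kb, 6 of the 10 genes had an NFATc2 summit (Tlr2, Tlr4, Tlr5, Tlr3, Tlr7 and Tlr9). Over all annotated genes this share was 49.2%, and over protein-coding genes 55.4%, so that the count at this distance was near the background. Within 1 kb, Tlr4 alone had a summit, where the background was 3.77% of all genes. From the outermost annotated start of Tlr4 that summit was 1289 bp away, outside this window. The 15 summits near these genes had 26 to 125 tags with a median of 58, beside a median of 63 for all NFATc2 peaks. There were 8 upstream and 7 downstream of the start of the gene, with 10 in intergenic DNA, 4 in introns and 1 in an exon. For 12 of the 15, the nearest protein-coding gene was the TLR gene itself, a count given without the same share for other genes. No other protein-coding gene had a TSS within 100 kb of those of Tlr4 or Tlr5, and 1 did for Tlr2.

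Tlr2 (chr3:83640195-83645689, minus strand) had 5 of the 15 summits, the most of the 10 genes. They lay 21.4 and 3.54 kb upstream and 2.17, 13.4 and 17.9 kb downstream of its start. The site 21.4 kb upstream was the deepest, with 125 tags and a peak p of 6.4e-12. The site 3.54 kb upstream had 56 tags but the smallest p of the 5, 4.2e-17, and a GGAAAA 5 bp from its summit. The site 2.17 kb downstream was in the Tlr2 intron and had 71 tags (p of 3.7e-09). The 2 sites beyond the 3′ end had 57 tags (13.4 kb, p of 4.4e-08) and 68 tags (17.9 kb, p of 8.6e-14). The summit in the intron was inside the H3K4me3 peak of the gene in every list, while the other 4 were outside any H3K4me3 peak.

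Tlr4 (chr4:66488618-66591318, plus strand) had a summit in an intron, 0.671 kb downstream of the nearest of its 4 annotated TSSs. This peak had 105 tags and a fold enrichment over input of 9.99 (p of 4.6e-08). Among all NFATc2 peaks it lay at percentile 75.6 by tags but at percentile 30.8 by p. It was 2248 bp long, beside a median of 1063 bp for all NFATc2 peaks. The other Tlr4 summit, 5.62 kb upstream, was weak, with 32 tags and a p of 2.6e-06.

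Tlr5 (chr1:184884919-184906175, plus strand) had 3 summits. The one in an intron, 7.17 kb downstream, had 56 tags (p of 3.6e-14). The other 2 lay together in intergenic DNA, 26.7 kb upstream with 95 tags (p of 8.5e-17) and 25.0 kb upstream with 26 tags (p of 8.2e-07). Tlr5 was the nearest coding gene of all 3.

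Among the endosomal receptors, Tlr3 (chr8:46481019-46495962, minus strand) had a weak summit 4.64 kb upstream with 46 tags (p of 4.7e-06). A deeper one with 117 tags lay 77.3 kb downstream, in an exon 16 bp from the start of another gene, Cyp4v3. The single summit near Tlr7 (chrX:163742861-163768490, minus strand) was 23.3 kb upstream with 58 tags (p of 5.1e-11), in an intron of Prps2. Tlr9 (chr9:106124929-106129207, plus strand) had a summit 22.5 kb upstream with 71 tags (p of 3.9e-07), which was 308 bp from the start of Ppm1m. Its other summit was 53.5 kb downstream, 5.01 kb from the start of Poc1a, with 32 tags. Thus the 2 Tlr9 summits and the distal Tlr3 summit were each nearer to another coding gene.

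The remaining 4 genes had no summit within 100 kb. The nearest summit was 112 kb from Tlr13 (chrX:103338543-103355832, plus strand) and 228 kb from Myd88 (chr9:119245052-119250529, minus strand). Tlr6 (chr5:65344345-65351287, minus strand) and Tlr1 (chr5:65316050-65324000, minus strand) are neighbours and had the same nearest summit, 116 and 143 kb away. That peak had 187 tags, more than any of the 15.

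**Figure D1:**
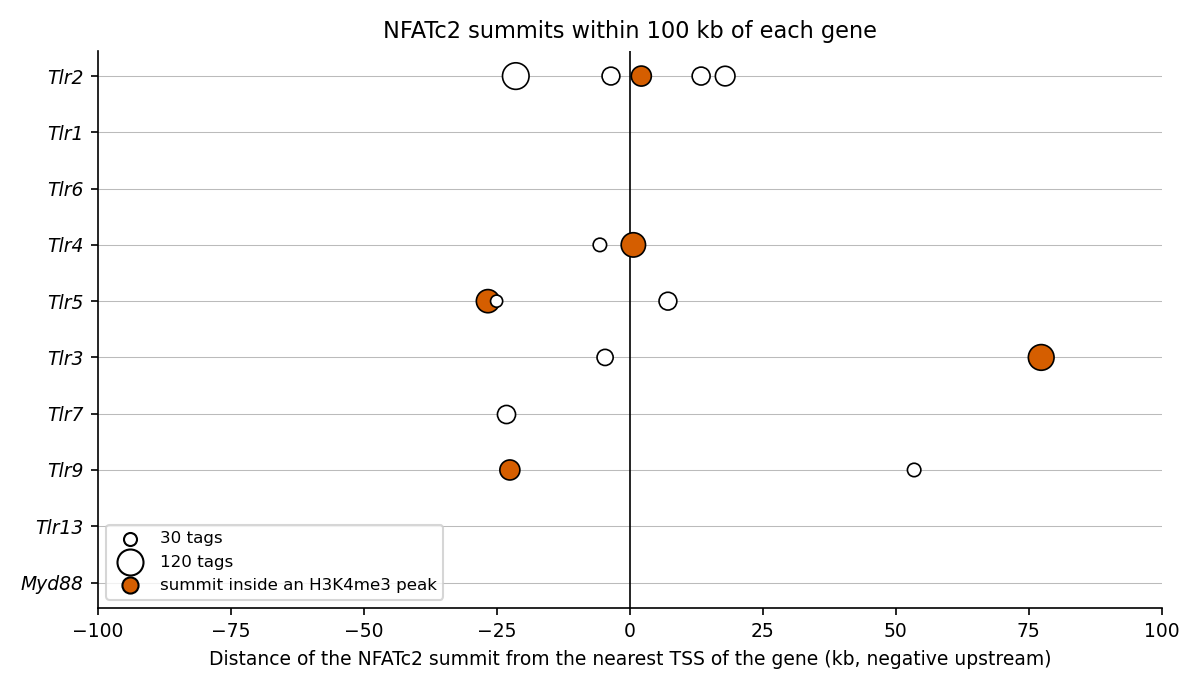
NFATc2 summits within 100 kb of each gene. The x axis gives the distance from the nearest TSS of the gene in kb (negative values are upstream), the area of a circle its tags, and a filled circle a summit inside an H3K4me3 peak of any list. Tlr2 has 5 summits, Tlr4 has the summit closest to a start, and the rows of Tlr1, Tlr6, Tlr13 and Myd88 are empty.

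Both strands were searched for motifs up to 100 bp away from each summit. GGAAAA was present at 7 of the 15 summits, beside 45.6% of all NFATc2 summits and 18.0% of windows 1 kb to each side. TGANTCA, the AP-1 site, where N is any base, was present at 5 of 15, beside 21.8% of all summits and 6.15% of the flanking windows. GAGGAA, the core bound by PU.1 in myeloid cells, was present at 10 of 15, beside 40.6% and 18.9%. GAGGAA followed by AA contains GGAAAA, so that the 2 motifs can overlap, as at the Tlr5 intron site shown above. Tlr2 had a GGAAAA and a TGANTCA at the site 3.54 kb upstream, and Tlr4 and Tlr5 had both at their intron sites. Tlr9 had both at the site 22.5 kb upstream, next to Ppm1m.

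H3K4me3 peaks were present at 8 of the 10 genes (Tlr2, Tlr4, Tlr5, Tlr6, Tlr3, Tlr9, Tlr13 and Myd88), and these were the same 8 in all 3 lists. Of all protein-coding genes, 51.5% had a peak in NT, 51.2% in curdlan, 51.1% in curdlan plus FK506 and 50.1% in all 3 lists. Tlr1 and Tlr7 had no peak in any condition. For Tlr1 the nearest peak was the one at Tlr6, between 25.7 and 26.0 kb from the Tlr1 start, and for Tlr7 the nearest was 50.4 to 50.6 kb away. No gene of the 10 gained a peak with curdlan that was not in the NT list, beside 0.658% of protein-coding genes. A peak list does not give the tags below the calling threshold, so a missing peak is not a level of 0.

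Levels are given as tags per 1000000 ChIP tags of the library (RPM, a tag being a mapped read), and levels of different genes were compared as RPM per kb of peak. In NT cells, Myd88 was highest at 18.6 RPM per kb (interval 17.8 to 19.5), then Tlr2 at 17.9 (16.9 to 19.0) and Tlr4 at 17.0 (16.1 to 17.8). The counting intervals of neighbours overlapped among these 3. Tlr9 followed at 14.3 (13.1 to 15.5) and Tlr13 at 11.4 (10.6 to 12.2). Tlr3 at 9.47 (8.65 to 10.4) and Tlr5 at 9.03 (8.34 to 9.75) overlapped with each other, and Tlr6, the partner of Tlr2, was lowest at 7.07 (6.28 to 7.93). The order thus did not follow the place of the receptor in the cell, since surface receptors were found at both ends of it. For Tlr13 and Tlr5 the values pool a weaker inner peak with the peak at the start. Their start peaks alone had 15.6 and 10.7 RPM per kb, above the values of Tlr9 and Tlr3, respectively.

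With curdlan the order per kb was resolved at the top, unlike in NT, but not at the bottom. Tlr2 was highest at 19.3 (18.4 to 20.3), above Myd88 at 15.2 (14.6 to 15.9) with no overlap of the counting intervals. Tlr4 came next at 11.8 (11.2 to 12.4) and Tlr9 at 10.3 (9.48 to 11.2), followed by Tlr3 at 8.53 (7.80 to 9.31). Tlr13 at 6.30, Tlr6 at 6.10 and Tlr5 at 5.96 could not be ordered within counting error. The start peaks alone of Tlr13 and Tlr5 had 9.50 and 6.53, the former above the value of Tlr3. With curdlan and FK506, Myd88 at 16.6, Tlr2 at 15.1, Tlr4 at 14.1 and Tlr9 at 13.5 each overlapped with the next in order. Below them were Tlr3 at 8.97, Tlr13 at 7.0, Tlr5 at 5.87 and Tlr6 at 5.24, where the start peaks alone of Tlr13 and Tlr5 had 10.3 and 6.26.

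For the comparison of conditions, the tags of all peaks of a gene were summed and expressed as RPM. From the log2 ratio of 2 conditions the median of all genes present in both lists was subtracted. This median was -0.13 for curdlan against NT, -0.04 for curdlan with FK506 against curdlan and -0.18 for curdlan with FK506 against NT. A difference of more than 1.5-fold after centring was counted. The 3 comparisons share libraries and are not independent of one another.

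Tlr2 was the 1 gene of the 8 with more H3K4me3 after curdlan beyond counting error. Its peak had 65.2 RPM in NT (61.4 to 69.2), 75.4 in curdlan (71.7 to 79.2) and 59.4 in curdlan plus FK506 (56.1 to 63.0), and it covered 3.64, 3.90 and 3.93 kb. The curdlan library was the highest and its counting interval did not overlap with the other 2. The centred log2 ratio was 0.34 for curdlan against NT (0.23 to 0.45, 1.27-fold higher) and -0.30 for curdlan with FK506 against curdlan (-0.41 to -0.19, 1.23-fold lower). Curdlan with FK506 against NT gave 0.04 (-0.08 to 0.17). The difference between curdlan and NT lay at percentile 90.3 of all genes, that between curdlan with FK506 and curdlan at percentile 5.01, and both were below 1.5-fold. With the fold enrichment over input of the peak in place of tags, the centred ratios of Tlr2 were 0.47 and -0.64, the second of which is past 1.5-fold.

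Tlr6 rested on the fewest tags. It had 17.6 RPM in NT, 16.9 in curdlan and 15.2 in curdlan plus FK506, from 294, 359 and 296 tags over 2.5, 2.76 and 2.90 kb. Its centred log2 ratios were 0.07 (-0.16 to 0.29) for curdlan against NT and -0.11 (-0.33 to 0.12) for curdlan with FK506 against curdlan. Neither could be told from 0 within counting error. With fold enrichment in place of tags, Tlr6 was past 1.5-fold higher with FK506, at 1.03 against curdlan and 0.97 against NT, the opposite direction to its tags.

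Tlr4 and Tlr5 were lower after curdlan. Tlr4 had 95.6 RPM in NT, 64.3 in curdlan and 62.0 in curdlan plus FK506, with a centred log2 ratio of -0.44 for curdlan against NT (-0.55 to -0.34, 1.36-fold lower, percentile 4.19). Its tags differed little between curdlan with FK506 and curdlan (-0.01, -0.12 to 0.10), although the peak was shorter with FK506, at 4.39 kb beside 5.64 kb in NT and 5.46 kb with curdlan. Most of the difference in length was at the side inside the gene. With fold enrichment in place of tags the Tlr4 ratio for curdlan against NT was -0.09. Tlr5 had 38.7, 27.1 and 25.1 RPM over 4.28, 4.55 and 4.28 kb, with a centred log2 ratio of -0.38 for curdlan against NT (-0.54 to -0.22, percentile 5.95) and -0.07 (-0.24 to 0.11) for curdlan with FK506 against curdlan. For Tlr5 the fold enrichment of its strongest peak gave 0.06, but this value compares different peaks. The strongest was the peak at the gene start in NT (42.97) and another peak inside the gene with curdlan (74.4). The peak at the start had a fold enrichment of 56.8 with curdlan.

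Tlr5 had 2 H3K4me3 peaks, which differed between conditions in opposite directions. The one at the start of the gene had 33.5 RPM in NT, 20.6 in curdlan and 18.9 in curdlan plus FK506. The inner one, with its summit about 5.3 kb into the gene, was small and had 5.16, 6.48 and 6.27 RPM from 86, 138 and 122 tags. Their centred log2 ratios for curdlan against NT were -0.57 (-0.75 to -0.38) and 0.46 (0.06 to 0.87), so that the counting intervals did not overlap. The NFATc2 summit in the Tlr5 intron was outside the inner peak, 1.15 kb from its edge with curdlan and 1.32 kb in NT.

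Among the endosomal receptor genes, Tlr13 had the largest difference of the 8 genes. It had 50.7 RPM in NT (47.3 to 54.2), 27.0 in curdlan (24.8 to 29.3) and 29.4 in curdlan plus FK506 (27.0 to 31.9), over 4.44, 4.29 and 4.20 kb. The NT library was the highest and the 2 stimulated libraries overlapped. The centred log2 ratio was -0.78 for curdlan against NT (-0.93 to -0.62, 1.71-fold lower, percentile 0.853), -0.61 for curdlan with FK506 against NT (-0.76 to -0.45, 1.52-fold lower) and 0.16 for curdlan with FK506 against curdlan (-0.01 to 0.33). Thus 1 of 8 genes was past 1.5-fold lower with curdlan and 0 were past 1.5-fold higher, where 1.87% of all 13019 genes were lower and 3.77% were higher.

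Tlr13 also had 2 H3K4me3 peaks, and both were lower with curdlan. The peak at the start had 35.3, 20.3 and 21.2 RPM in NT, curdlan and curdlan with FK506, and the inner one, about 2.6 kb into the gene, had 15.3, 6.67 and 8.22. The centred log2 ratio of curdlan against NT was -0.67 (-0.85 to -0.48) at the start and -1.07 (-1.37 to -0.76, 2.09-fold lower) at the inner peak. In the curdlan list alone, a further small peak with 113 tags (5.31 RPM) had its summit 3.40 kb upstream of the Tlr13 start. When peaks within 5 kb of a TSS were summed, this peak entered and the ratio of Tlr13 became -0.51, below 1.5-fold. With fold enrichment it was -0.58, just inside the limit. For curdlan with FK506 against NT, the ratio of Tlr13 per kb of peak was -0.51, also below 1.5-fold.

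Tlr3 and Tlr9 differed less. Tlr3 had 29.4, 23.4 and 22.3 RPM in NT, curdlan and curdlan with FK506, over 3.10, 2.74 and 2.49 kb, with centred log2 ratios of -0.20 (-0.38 to -0.02) for curdlan against NT and -0.02 (-0.21 to 0.17) for curdlan with FK506 against curdlan. Per kb of peak, the centred ratio of curdlan against NT was 0.03 for Tlr3. With fold enrichment it was 0.62, the opposite direction to its tags. Tlr9 had 33.9, 27.0 and 30.6 RPM over 2.38, 2.62 and 2.26 kb, with -0.20 (-0.37 to -0.03) and 0.22 (0.06 to 0.39, percentile 96.0). Tlr9 was thus the gene whose tags were higher with FK506 than with curdlan alone beyond counting error, but its fold enrichment gave -0.42. Myd88 had 115 RPM in NT, 98.5 in curdlan and 93.7 in curdlan plus FK506, over 6.16, 6.47 and 5.64 kb, and centred log2 ratios of -0.09 (-0.18 to 0.00) and -0.03 (-0.12 to 0.06). With fold enrichment, Myd88 was at 0.55 for curdlan with FK506 against curdlan and at 0.75 for curdlan with FK506 against NT, while its tags gave -0.11 for the latter. The Myd88 peak also reached the neighbouring gene Acaa1a, and the tags of the 2 genes cannot be told apart.

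**Figure D2:**
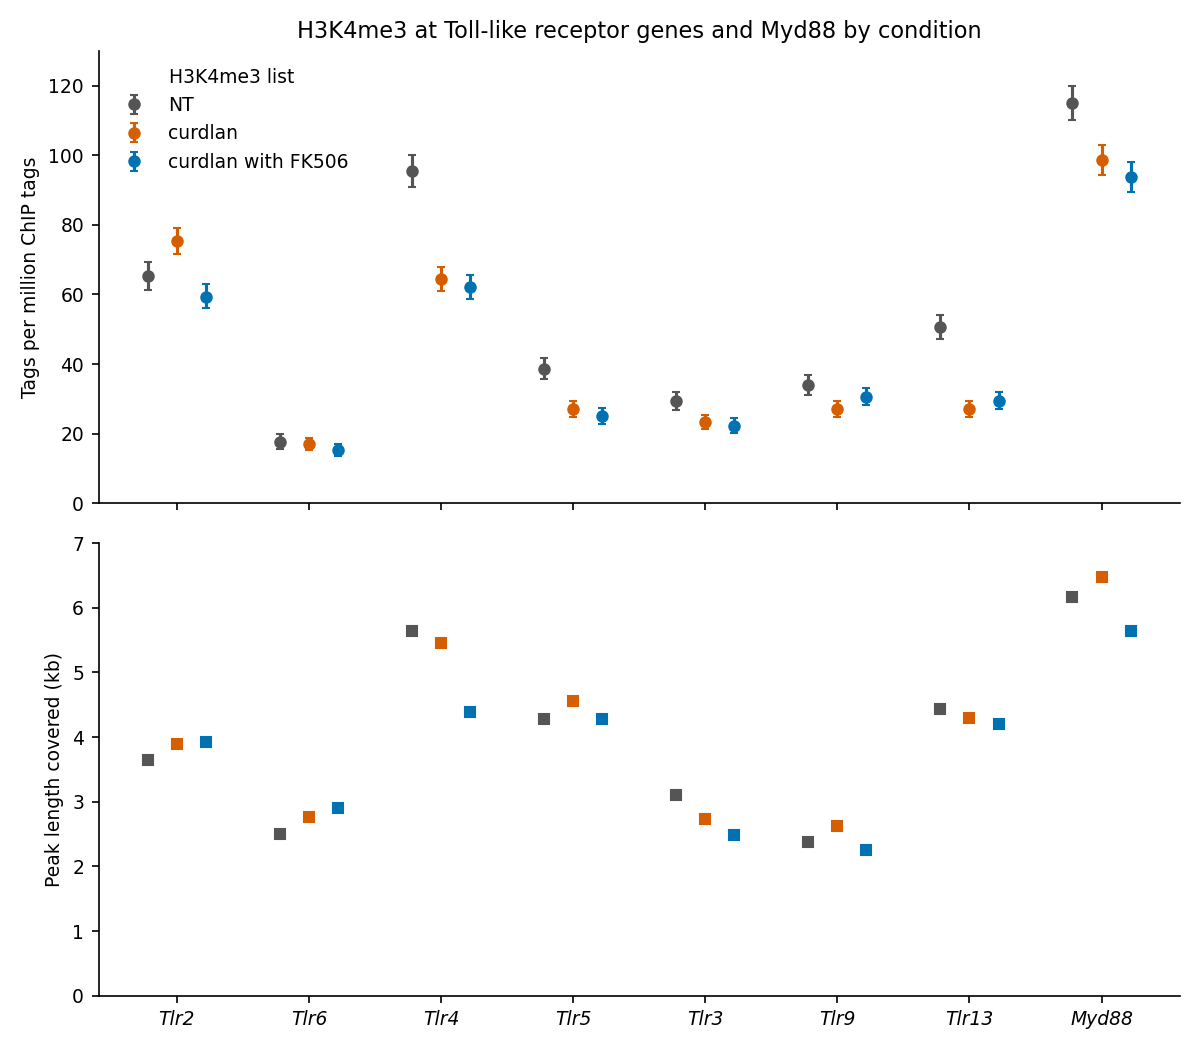
H3K4me3 at the 8 genes with a peak, in NT, curdlan and curdlan with FK506. The upper panel gives RPM (tags per 1000000 ChIP tags) with 95% counting intervals, and the lower panel the length covered by the peaks in kb. Tlr2 is highest with curdlan (75.4 RPM), while Tlr4, Tlr5 and Tlr13 are highest in NT (95.6, 38.7 and 50.7).

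**Figure D3:**
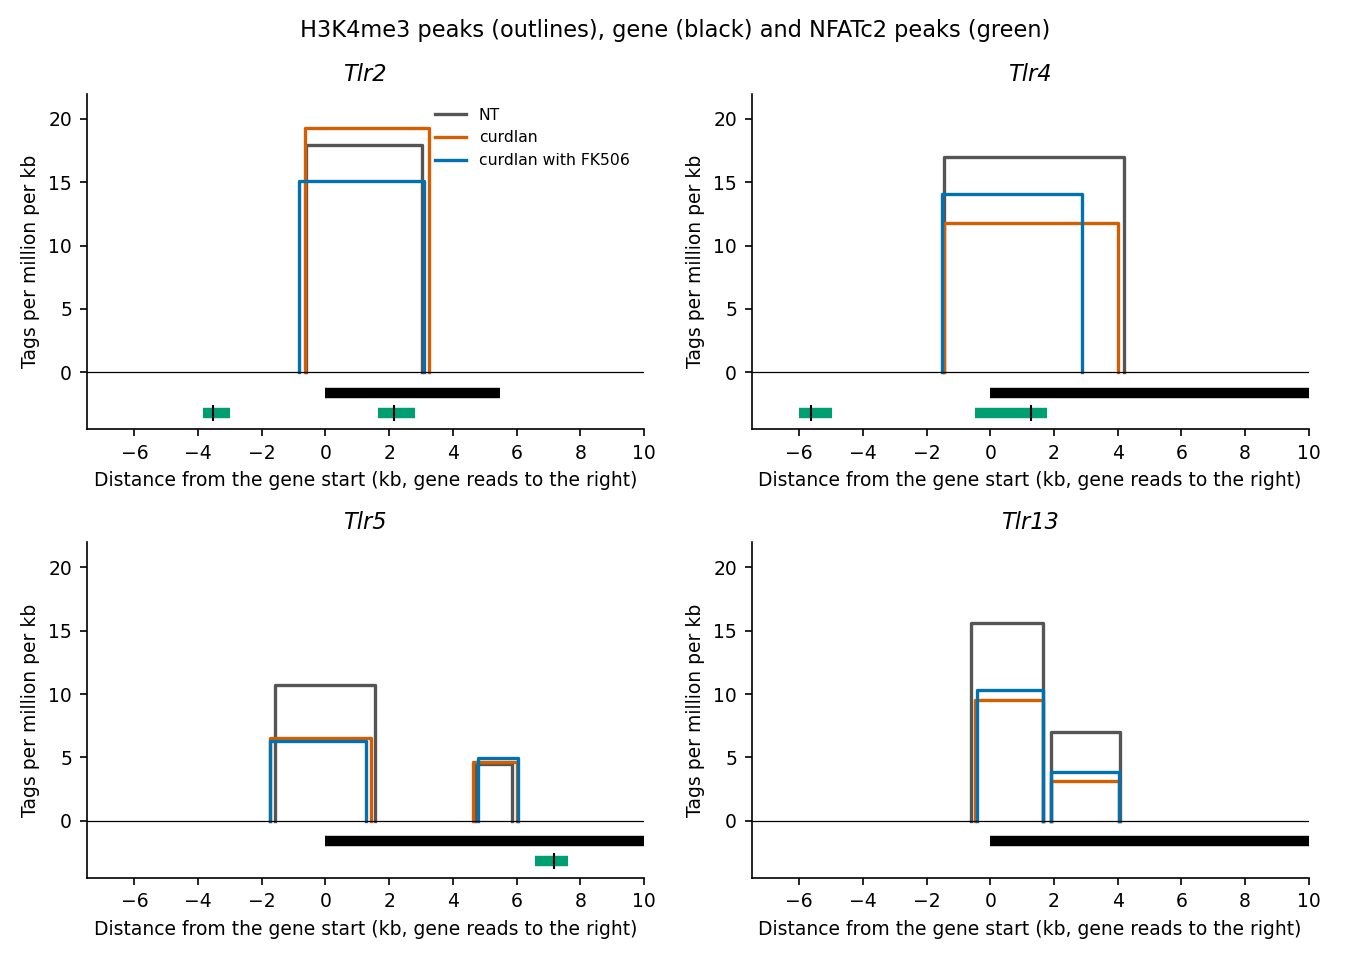
H3K4me3 peaks at Tlr2, Tlr4, Tlr5 and Tlr13, drawn as outlines from the start to the end of each peak with the height in RPM per kb, against the distance from the start of the gene in kb. The black bar is the gene, and the green bars are NFATc2 peaks with the summit as a tick. Tlr5 and Tlr13 have an inner peak besides the one at the start, and Tlr13 has no NFATc2 peak in the window.

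Over the 8 genes, the median centred log2 ratio for curdlan against NT was -0.20, with a range of -0.78 to 0.34 and 2 genes above and 6 below the median of all genes, which is 0 by construction. The counting interval was above 0 for 1 gene (Tlr2), below 0 for 5 (Tlr4, Tlr5, Tlr3, Tlr9 and Tlr13) and held 0 for 2 (Tlr6 and Myd88). For comparison, the 5th and 95th percentiles of all genes were -0.41 and 0.50, and Tlr3 and Tlr9 lay at percentiles 18.8 and 19.0. The share of all genes whose interval excludes 0 is not given, so the counts of intervals here have no background beside them. For curdlan with FK506 against curdlan the median was -0.03, with a range of -0.30 to 0.22. The interval was above 0 for Tlr9, below 0 for Tlr2 and held 0 for the other 6 genes. No gene of the 8 was past 1.5-fold in this comparison, where 0.592% of all 12996 genes were higher and 1.45% were lower. For curdlan with FK506 against NT the median was -0.17, and Tlr13 was the 1 gene past 1.5-fold lower, with 1.95% of all 12997 genes lower and 3.02% higher. With only peaks within 1 kb of a TSS the count was also 1, but the gene was Tlr5 (-0.65) and not Tlr13 (-0.57).

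**Figure D4:**
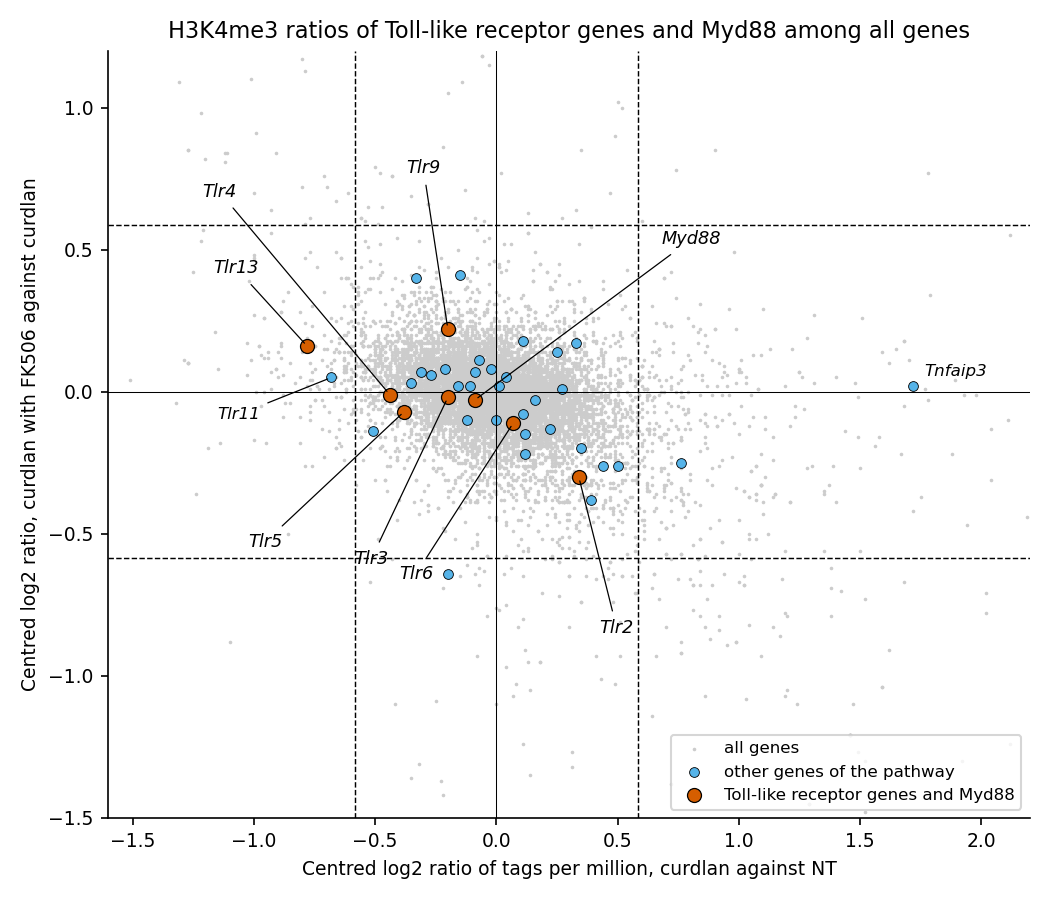
Centred log2 ratio of H3K4me3 RPM for curdlan against NT (x axis) and for curdlan with FK506 against curdlan (y axis), which share the curdlan library. Grey dots are genes with a peak in all 3 lists, of which 57 of 12883 lie outside the axes, and dashed lines mark 1.5-fold. Tlr13 (-0.78, 0.16) is the labelled receptor gene of the 8 beyond a dashed line, and Tlr2 (0.34, -0.30) lies to the lower right.

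The genes with NFATc2 near their start did not share a direction of H3K4me3. Of the 4 with a summit within 10 kb, Tlr2 was higher with curdlan and Tlr4, Tlr5 and Tlr3 were lower by tags, and Tlr13, with the largest difference, had its nearest summit at 112 kb. Of the 15 summits, 5 were inside an H3K4me3 peak, a count given without the share over all NFATc2 summits. Besides the Tlr2 and Tlr4 intron sites, these were the Tlr5 site 26.7 kb upstream, the site at the start of Cyp4v3 and the site next to Ppm1m. The peak at the distal Tlr5 site had 15.5 RPM in NT, 9.30 in curdlan and 10.4 in curdlan plus FK506, over 1.91, 2.00 and 1.92 kb. Its centred log2 ratio was -0.61 for curdlan against NT (-0.88 to -0.34) and 0.21 for curdlan with FK506 against curdlan (-0.08 to 0.50), the first of which had the direction seen at the Tlr5 start. The peak next to Ppm1m was listed with 251 tags over 1.61 kb in NT and 216 over 1.65 kb in curdlan, but with 945 tags over 4.15 kb in curdlan plus FK506, so that its extent differed between the lists and its tags were not compared. The NFATc2 library was made after 30 min and the stimulated H3K4me3 libraries after 2 h, so that they are not the same time point.

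The promoters of Tlr2, Tlr5 and Tlr13 are shown because these genes had H3K4me3 peaks over their starts that differed in direction between NT and curdlan. The sequences are from RefSeq (build GRCm38.p6), which gave 10 promoters for 8 of the 10 genes but none for Tlr4 and Tlr7. Each runs 5′ to 3′ on the strand of the gene, from 250 bases before to 50 bases after the start. Each matched mm9 exactly, at chr3:83645481-83645780 (minus strand), chr1:184884669-184884968 (plus strand) and chrX:103338364-103338663 (plus strand). Capitals mark matches on either strand to the 3 motifs named above and to a loose form of the NF-κB site, which is GGG and CC with 5 bases of any kind between them.
Tlr2: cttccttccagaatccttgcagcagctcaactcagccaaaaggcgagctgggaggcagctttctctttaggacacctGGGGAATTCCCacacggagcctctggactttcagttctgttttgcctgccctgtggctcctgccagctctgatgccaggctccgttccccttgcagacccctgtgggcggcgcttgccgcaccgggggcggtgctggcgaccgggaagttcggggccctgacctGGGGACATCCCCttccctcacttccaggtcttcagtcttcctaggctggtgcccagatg
Tlr5: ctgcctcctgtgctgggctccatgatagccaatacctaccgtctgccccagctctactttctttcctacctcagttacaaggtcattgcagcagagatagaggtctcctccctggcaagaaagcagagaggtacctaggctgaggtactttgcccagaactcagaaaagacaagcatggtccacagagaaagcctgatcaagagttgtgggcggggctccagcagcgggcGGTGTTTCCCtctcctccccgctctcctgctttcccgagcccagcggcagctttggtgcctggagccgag
Tlr13: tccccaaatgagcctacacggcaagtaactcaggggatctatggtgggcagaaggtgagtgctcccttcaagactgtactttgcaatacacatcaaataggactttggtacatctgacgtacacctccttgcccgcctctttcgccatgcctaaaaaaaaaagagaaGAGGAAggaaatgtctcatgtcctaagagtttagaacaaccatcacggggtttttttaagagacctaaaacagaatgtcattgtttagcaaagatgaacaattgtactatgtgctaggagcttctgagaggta
The Tlr2 promoter had the loose NF-κB pattern in 2 separate runs, each of which holds overlapping matches, and 11 CpG pairs. The Tlr5 promoter had 1 match to the NF-κB pattern and 8 CpG pairs, and that of Tlr13 had 1 GAGGAA and 5 CpG pairs, beside a median of 7 CpG pairs over all promoters. None of the 3 held GGAAAA. Of the other promoters, that of Tlr3 had 1 GGAAAA and 3 matches to the NF-κB pattern, and that of Tlr9 had 2 GAGGAA, 1 TGANTCA and 0 CpG pairs. Over all 32851 promoters of this length, 23.4% held the NFAT core, 28.3% the PU.1 core, 7.81% the AP-1 site and 50.8% the NF-κB pattern. These are matches of letters in a window of 300 bases and not measured sites.

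A list of 39 other genes of the TLR pathway was examined in the same way, and 33 of them had an H3K4me3 peak in all 3 lists. For curdlan against NT, 2 of 33 were past 1.5-fold higher and 1 was past 1.5-fold lower, with a median of 0.01, where 3.77% of all genes were higher and 1.87% lower. The largest differences upwards were at Tnfaip3, which encodes the ubiquitin-editing inhibitor A20, with 74.7, 224 and 221 RPM in NT, curdlan and curdlan with FK506 (1.72, 1.63 to 1.81, 3.29-fold higher), and at Traf6, the ubiquitin ligase downstream of Myd88, with 44.7, 68.9 and 56.1 (0.76, 0.63 to 0.89, 1.69-fold higher). Irak2, a kinase of the Myd88 complex, was next with 51.3, 66.0 and 53.7 RPM (0.50, 0.37 to 0.62). Of these 3 genes, Traf6 and Irak2 shared with Tlr2 a lower value with FK506 than with curdlan alone, at -0.25 (-0.37 to -0.14) and -0.26 (-0.37 to -0.14). Tnfaip3 did not differ beyond counting error (0.02, -0.04 to 0.08). Both comparisons use the same curdlan library, so a high curdlan value raises the ratio to NT and lowers that of FK506 to curdlan. Peli1 (0.44 and -0.26), Ctsl (0.39 and -0.38) and Cd14 (0.35 and -0.20) had the same pair of directions, but Tollip (0.33 and 0.17) did not.

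The largest differences downwards in that list were at Tlr11, Sigirr and Il1rl1. Tlr11, which senses profilin of protozoa, had 49.9, 28.4 and 28.6 RPM and a centred log2 ratio of -0.68 for curdlan against NT (-0.84 to -0.53, 1.61-fold lower). Its ratio was the nearest in that list to the -0.78 of Tlr13, also an endosomal receptor gene. The inhibitory receptor gene Sigirr had 27.8, 17.8 and 15.8 RPM (-0.51, -0.71 to -0.31), and Il1rl1, which encodes the receptor of interleukin 33, had 42.0, 30.1 and 29.7 (-0.35, -0.51 to -0.19). The receptor genes Tlr8 and Tlr12 had no H3K4me3 peak in any list. For curdlan with FK506 against curdlan, 0 of 34 genes were past 1.5-fold higher and 2 were lower (0.592% and 1.45% of all genes), Irak3 at -0.64 (-1.0 to -0.29) and Ikbke at -0.61 (-1.14 to -0.08). Both had low values, 8.74 and 5.44 RPM for Irak3, an inhibitory kinase homologue, and 3.95 and 2.52 RPM for Ikbke, which had no peak in NT. Irak3 had 2 peaks over 3.18 kb in curdlan and 1 peak over 1.16 kb in curdlan plus FK506, so that its ratio also holds the loss of a called peak from the list. For curdlan with FK506 against NT, 1 of 33 was past 1.5-fold higher (Tnfaip3) and 3 were lower (Tlr11, Sigirr and Irak3), with a median of 0.03, where 3.02% of all genes were higher and 1.95% lower. Irak3 had 2 peaks in NT as well. An NFATc2 summit lay within 100 kb of 31 of the 39 genes and within 10 kb of 12, where the shares over protein-coding genes were 55.4% and 16.3%. It was 5 bp from a TSS at Irak2, 0.845 kb at Traf6 and 0.157 kb at Ly96, which encodes the Tlr4 co-receptor MD-2. Pik3ap1 (0.502 kb) and Tab2 (0.557 kb) also had a summit within 1 kb. For curdlan with FK506 against curdlan, these genes did not share a direction. Ly96 (0.41, 0.25 to 0.56) and Pik3ap1 (0.18, 0.12 to 0.24) were higher, while Tab2 (-0.22, -0.35 to -0.09) was lower, as were Irak2 and Traf6.

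By role, the ratio of curdlan against NT had a median of -0.19 over the 6 genes for chaperones, trafficking and processing, 0.11 over the 5 adaptors, 0.12 over 11 kinases and ligases and -0.20 over 7 inhibitors, although Tnfaip3 is 1 of them. The co-receptors with a peak (3 of 6) had a median of 0.11. The protein-coding genes with the pattern most like Tlr13, by distance over the 2 centred ratios among 11197 genes, were Slc13a2 (0.022), Hepacam2 (0.023) and C030030A07Rik (0.035). Hepacam2 had 72.7, 38.8 and 42.8 RPM in NT, curdlan and curdlan with FK506. This likeness is over 3 libraries and describes these values only.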

How the data were processed

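Per the file headers, the authors called peaks with MACS (version 1.4.2), library by library and each against its own input, with a threshold of 1e-05 on the p-value; the band width was 300 bp (NFATc2) or 1000 bp (H3K4me3). Reads had been aligned with bowtie 1 to mm9. The deposited lists hold for each peak its position, its summit, a count of tags (not normalized), a p-value score (−log10 p times 10), a fold enrichment (a ratio to the background predicted from the input) and an FDR in percent. The header totals were already limited to 1 tag per position. Genes were those of Ensembl release 65. Ratios have exact conditional binomial intervals, and levels exact Poisson intervals. Alternatives changed the peak threshold, FDR, windows, overlap, scaling and fold limit, and centring on protein-coding genes alone was added after the data were seen. The genes and the pathway list were chosen with earlier results of these data known. All 10 genes are named. Of the pathway list, the 3 largest differences in each direction for curdlan against NT were named by rule. Tlr8, Tlr12, Irak3, Ikbke, Ly96, Pik3ap1, Tab2, Peli1, Ctsl, Cd14 and Tollip were added after their values were seen. The motif sequence at the Tlr3 summit is not reported here. The calculations were tested on simulated data. They used Python 3.11.15 with numpy 2.4.6, scipy 1.17.1, pandas 2.3.3 and pysam 0.24.0.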

Additional observations from a re-analysis of the deposited data

How the results depend on the processing

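Of 118 alternative values of the counts and medians, 99 stayed within 1.5 times the reported count or within counting error of it and 19 moved. Of 246 values of single genes 198 kept their distance or stayed within counting error and 48 moved. The count of values past 1.5-fold that turned to the opposite direction was 0. Among the single-gene ratios only those of Tlr13 were past 1.5-fold as reported, so few could turn. Below that limit some directions did turn with fold enrichment. Examples were Tlr3 for curdlan against NT (-0.20 to 0.62), Tlr6 for curdlan with FK506 against curdlan (-0.11 to 1.03) and Myd88 for curdlan with FK506 against NT (-0.11 to 0.75). With NFATc2 peaks of p of 1e-10 or less, 2 genes had a summit within 10 kb and 7 summits remained within 100 kb. With peaks within 5 kb of a TSS, 0 genes were past 1.5-fold lower for curdlan against NT. Without centring, 3 genes were lower for curdlan with FK506 against NT and the median was -0.34. Per kb, 0 were lower in that comparison. With fold enrichment, 1 gene was higher (Tlr3) and 0 lower for curdlan against NT (median 0.00), 1 was higher (Tlr6) and 1 lower (Tlr2) for curdlan with FK506 against curdlan, and 3 were higher and 2 lower for curdlan with FK506 against NT (median 0.03). With a fold limit of 2, 0 genes were lower in either comparison with NT. With a limit of 0.32 on the log2 scale, 1 was higher (Tlr2) and 3 lower for curdlan against NT, and 3 were lower for curdlan with FK506 against NT. Apart from the construction of the windows and limits, the cause was not tested. Fold enrichment uses the input library, which the tags do not, and the input totals ran from 9309800 to 12085435 tags. No paired analysis was possible because each condition had 1 library, and for the same reason no library could be left out. At this depth, differences of Tlr6, with 294 to 359 tags, were not detectable within counting error.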
